A study of Homo sapiens with 12 samples.

Results

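The comparison described here is the effect of depleting PRMT1 in T47D cells that received no hormone. It takes the 3 libraries labelled siPRMT1 T0 against the 3 libraries labelled siCT T0, which is 6 of the 12 RNA-seq libraries of the series, and every gene of the count tables enters it. T47D is an established human line of luminal breast cancer that carries the receptors for progesterone and estrogen. The cells of all 6 libraries grew in the same serum- and insulin-supplemented medium and were exposed to ethanol, the solvent of the hormone, for 6 h. The siCT cells carried a control siRNA and the siPRMT1 cells an siRNA against PRMT1. The other 6 libraries come from the same siRNA groups after 6 h with 10 nM R5020, a synthetic progestin, and share no library with the ethanol comparison. Their values are set beside those in ethanol, and they also entered the low-count filter and the estimate of spread behind the ethanol p-values. A fit of the 6 ethanol libraries alone gave 3324 calls, where the fit over all 12 gave 5806. The series asks how PRMT1 bears on the progestin response, and the ethanol libraries show the state from which that response starts. The model is 1 cell line with 1 siRNA label per arm, so effects of the depletion and other effects of that siRNA cannot be told apart.

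PRMT1 is the main enzyme that places asymmetric dimethyl marks on arginines. Its substrates include histone H4, RNA-binding proteins with RGG repeats and a range of signalling proteins and transcription factors. In breast cells it is known as a coactivator of nuclear receptors and as a modifier of the estrogen receptor itself.

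PRMT1 mRNA stood at 45.4, 37.4 and 29.7 CPM (counts scaled to a common library size after TMM normalization) in siCT replicates 1, 2 and 3, and at 7.92, 8.38 and 8.38 CPM in siPRMT1 replicates 1, 2 and 3. The groups did not overlap, and the log2 fold change of siPRMT1 over siCT was -2.19 ± 0.17 (± SE, as for all fold changes here; adjusted p = 7.79e-06). Adjusted p-values are Benjamini-Hochberg values over the 17727 genes that entered edgeR's quasi-likelihood test, with genes under 0.05 referred to as called. Keratin and receptor genes that define luminal breast cells were present throughout: all 14 luminal markers were tested, 4 were called higher with siPRMT1 and 0 lower.

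Total counts of the 6 libraries lay between 27946362 and 33914316. The siCT replicate 3 library stood apart from the other 5. Mitochondrially encoded genes took 59.3% of its counts, against 32.2% to 33.8% in the others, and the nuclear RNA MALAT1 stood at 1519 CPM, against 269 to 486 CPM. The biological coefficient of variation common to all genes, estimated by edgeR, was 0.326 in siCT and 0.0463 in siPRMT1. Values without this library are given beside many of the gene lists and genes below. RNA from bulk cultures does not separate fewer cells of a kind from less RNA per cell.

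Depletion of PRMT1 changed a large share of the measured transcripts. Of 17727 genes tested, 5806 were called (32.8%), with 2407 higher (13.6%) and 3399 lower (19.2%) in siPRMT1 than in siCT. Changes of at least 2-fold were more often decreases, with 701 genes higher (3.95%) and 1873 lower (10.6%). Above 4-fold stood 73 genes that rose by less than 8-fold and 28 that rose by more, against 269 and 58 that fell. The 3 siPRMT1 libraries all lay above the 3 siCT libraries for 3701 genes (20.9%) and all below for 4225 (23.8%). Among called genes such separation was the rule, in 2391 of the 2407 higher and 3239 of the 3399 lower. Separate groups given for called genes below therefore add little to their calls. Leaving out siCT replicate 3 gave 5782 calls of 18067 genes tested (32%), and the excess of decreases was absent, with 2909 genes higher (16.1%) and 2873 lower (15.9%). At 2-fold or more 813 were then higher (4.5%) and 1298 lower (7.18%).

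The number of calls also moved with every other library. Leaving out 1 siPRMT1 library at a time gave 3655, 3775 and 3487 calls, and leaving out siCT replicate 2 gave 7827. Called in each of these 6 reduced comparisons were 1246 of the 2407 genes that rose and 1786 of the 3399 that fell. No gene called over all libraries was called in the opposite direction in any of them.

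**Figure D1:**
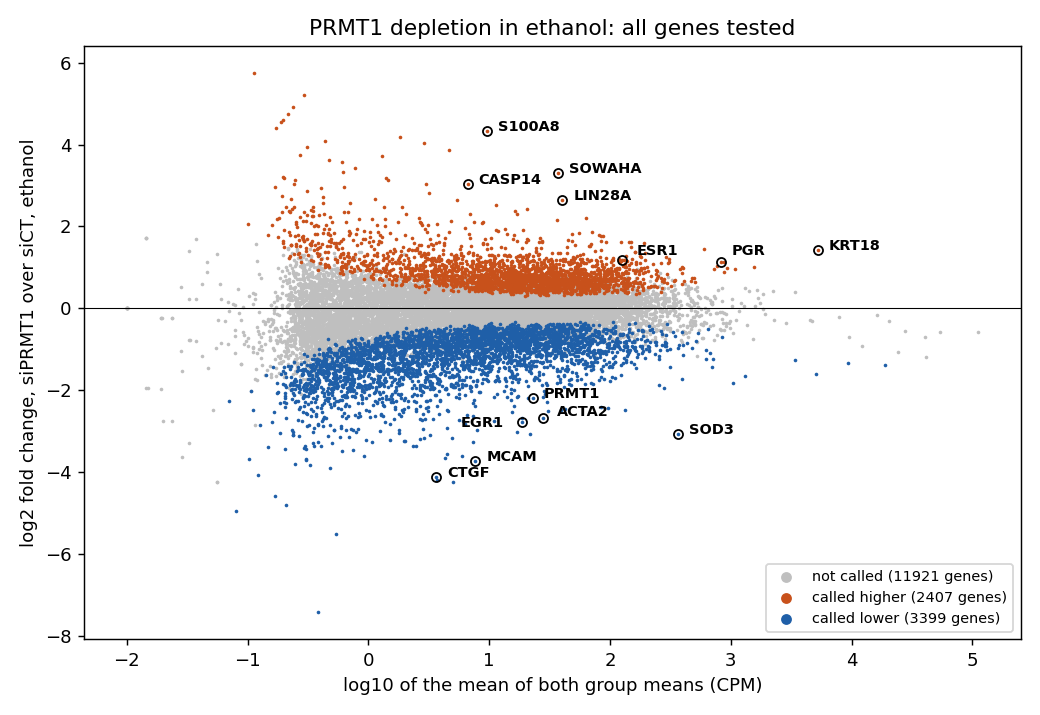
Each point is 1 of 17727 genes, with the log10 of its mean level (CPM) on the horizontal axis and its log2 fold change of siPRMT1 over siCT in ethanol on the vertical axis. Orange points are the 2407 genes called higher, blue points the 3399 called lower and grey points the rest. PRMT1 lies at -2.19, S100A8 at 4.34, MCAM at -3.74 and CTGF at -4.13, where all genes span -7.42 to 5.75.

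The 12 largest increases among genes averaging 5 CPM or more, with separate groups, were led by S100A8, which encodes a calcium-binding protein that pairs with S100A9 as calprotectin. S100A8 rose from 1.01, 1.06 and 0.547 CPM in the siCT replicates to 18.3, 18.5 and 18.6 CPM in the siPRMT1 replicates, a log2 fold change of 4.34 ± 0.22 (adjusted p = 5.09e-07). Its partner S100A9 stood at 8.59, 6.46 and 4.26 CPM and then at 34.0, 32.8 and 38.3 CPM (log2 2.43 ± 0.22). Separate groups were a condition of choice for these 12 genes. The mean level covered both groups, so a gene could pass through its higher group alone. The siCT replicate 3 library held the lowest value of S100A8 and of S100A9.

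CASP14, a caspase of epidermal cornification, went from 1.39, 1.53 and 1.37 CPM to 11.8, 11.6 and 12.2 CPM (log2 3.04 ± 0.21). SOWAHA, an ankyrin repeat gene, had 8.12, 7.49 and 4.48 CPM in siCT and 66.1, 67.7 and 67.8 CPM in siPRMT1 (log2 3.31 ± 0.28). For LIN28A, the RNA-binding protein that blocks maturation of the let-7 microRNAs, the siCT libraries gave 12.21, 12.04 and 8.749 CPM and the siPRMT1 libraries 66.8, 72.1 and 69.9 CPM (log2 2.66 ± 0.17). The siPRMT1 libraries lay within a narrow band for all these genes, far above the siCT libraries.

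SLC6A14, a transporter of neutral and cationic amino acids, rose from 1.090, 1.239 and 2.297 CPM to 9.04, 8.76 and 10.0 CPM (log2 2.64 ± 0.29). GFPT1, the rate-limiting enzyme of hexosamine synthesis, rose from 20.5, 26.4 and 20.1 CPM to 98.6, 102 and 110.0 CPM (log2 2.21 ± 0.15), and PLCH1, a phospholipase C, from 13.8, 12.9 and 13.0 CPM to 58.2, 59.1 and 60.0 CPM (log2 2.16 ± 0.14). The remaining genes of this set were STRIP2, a partner of striatin phosphatase complexes (log2 2.52 ± 0.27), ANKRD46 (2.38 ± 0.17), GREB1L, a relative of the estrogen-induced gene GREB1 (2.31 ± 0.17), and the fatty acid elongase ELOVL2 (2.303 ± 0.231). All 12 were also called higher in R5020, without siCT replicate 3 and without each other library. Having been chosen from these ethanol libraries, they were likely to stay called with 1 left out. Only the R5020 fold changes come from other libraries.

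The 12 largest decreases under the same conditions were led by MCAM, a cell adhesion molecule of the immunoglobulin family. MCAM stood at 10.5, 7.93 and 24.4 CPM in siCT and 0.956, 0.825 and 1.39 CPM in siPRMT1, with a log2 fold change of -3.74 ± 0.44 (adjusted p = 9.48e-05; -3.06 without siCT replicate 3). SOD3, the secreted superoxide dismutase, fell from 613, 378 and 973 CPM to 79.3, 81.2 and 74.6 CPM (log2 -3.06 ± 0.32). FBLN5, a fibulin of elastic fibres, fell from 16.3, 12.8 and 27.6 CPM to 3.08, 2.63 and 2.72 CPM (log2 -2.74 ± 0.28). Separate groups were again a condition of choice, and siCT replicate 3 was the highest library for each of these genes.

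CYP2S1, a cytochrome P450, had 9.95, 7.14 and 15.9 CPM and then 0.846, 1.01 and 0.816 CPM (log2 -3.61 ± 0.32). ADAMTSL4, a secreted fibrillin-binding protein, had 11.97, 6.843 and 21.05 CPM and then 1.37, 1.30 and 1.41 CPM (log2 -3.27 ± 0.38). OLFML2A, an extracellular olfactomedin-like protein, had 33.6, 24.5 and 59.4 CPM in siCT and 4.42, 4.58 and 4.92 CPM in siPRMT1 (log2 -3.07 ± 0.30). In each of these the lowest siCT library still exceeded the highest siPRMT1 library several times over.

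The others of the 12 were CERCAM (log2 -3.01 ± 0.35), the glycosyltransferase-like gene GLT8D2 (-2.97 ± 0.32), the phosphatase gene DUSP15 (-2.82 ± 0.25), the transcription factor gene EGR1 (-2.77 ± 0.17), CNTNAP1, a membrane partner of contactin (-2.75 ± 0.42), and TM4SF19-AS1 (-2.72 ± 0.41). TM4SF19-AS1 is an antisense gene, and without a known strand setting its reads cannot be told apart from those of its partner. In all 12 decreases siCT replicate 3 was the highest of the siCT libraries. Without it the 12 log2 decreases had sizes of 2.08 to 3.19, where they had been 2.72 to 3.74, with CNTNAP1 at -2.08 and TM4SF19-AS1 at -2.10. All 12 remained called lower in that comparison, in R5020 and without each other library.

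**Figure D2:**
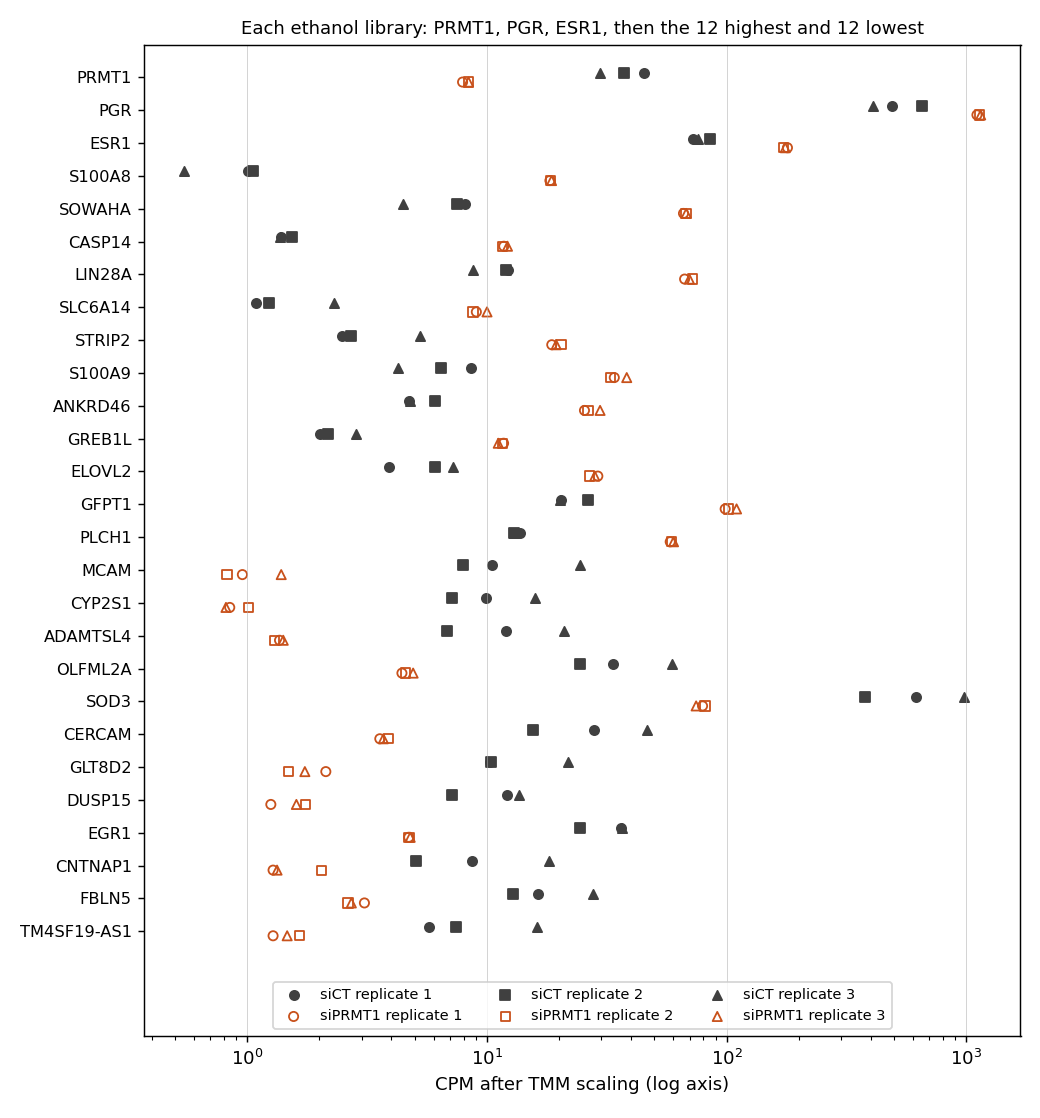
Every ethanol library is shown as 1 symbol on a log axis of CPM after TMM scaling, filled grey for siCT and open orange for siPRMT1, for PRMT1, PGR, ESR1 and the 12 highest and 12 lowest genes. No orange symbol reaches a grey one in any gene, which was a condition of choice for the 12 highest and 12 lowest genes. The siCT replicate 3 triangle is the rightmost grey symbol in the 12 lowest genes.

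Gene lists give a wider view, but they were chosen with earlier results of these data known. Their shares and ranks are descriptions, and no list was tested. Across all genes tested 13.6% were called higher and 19.2% lower, with a median log2 fold change of -0.07, and each list below is read beside those values. The lists with the highest share of members called lower held extracellular matrix and secreted proteins, YAP and TEAD targets, NF-kB and inflammatory genes and immediate early genes. Among the lists with at least 10 members tested, the nuclear-encoded respiratory chain, steroid receptors and coregulators and ribosome biogenesis had the highest shares called higher, followed by the estrogen response and the T47D and luminal breast markers with equal shares. Lists can share members, so their counts are not independent. PGR and ESR1 count in both the steroid receptor list and the T47D marker list. The immediate early list and the YAP and TEAD list have the same lowest log2 fold change, -4.13, that of CTGF.

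**Figure D3:**
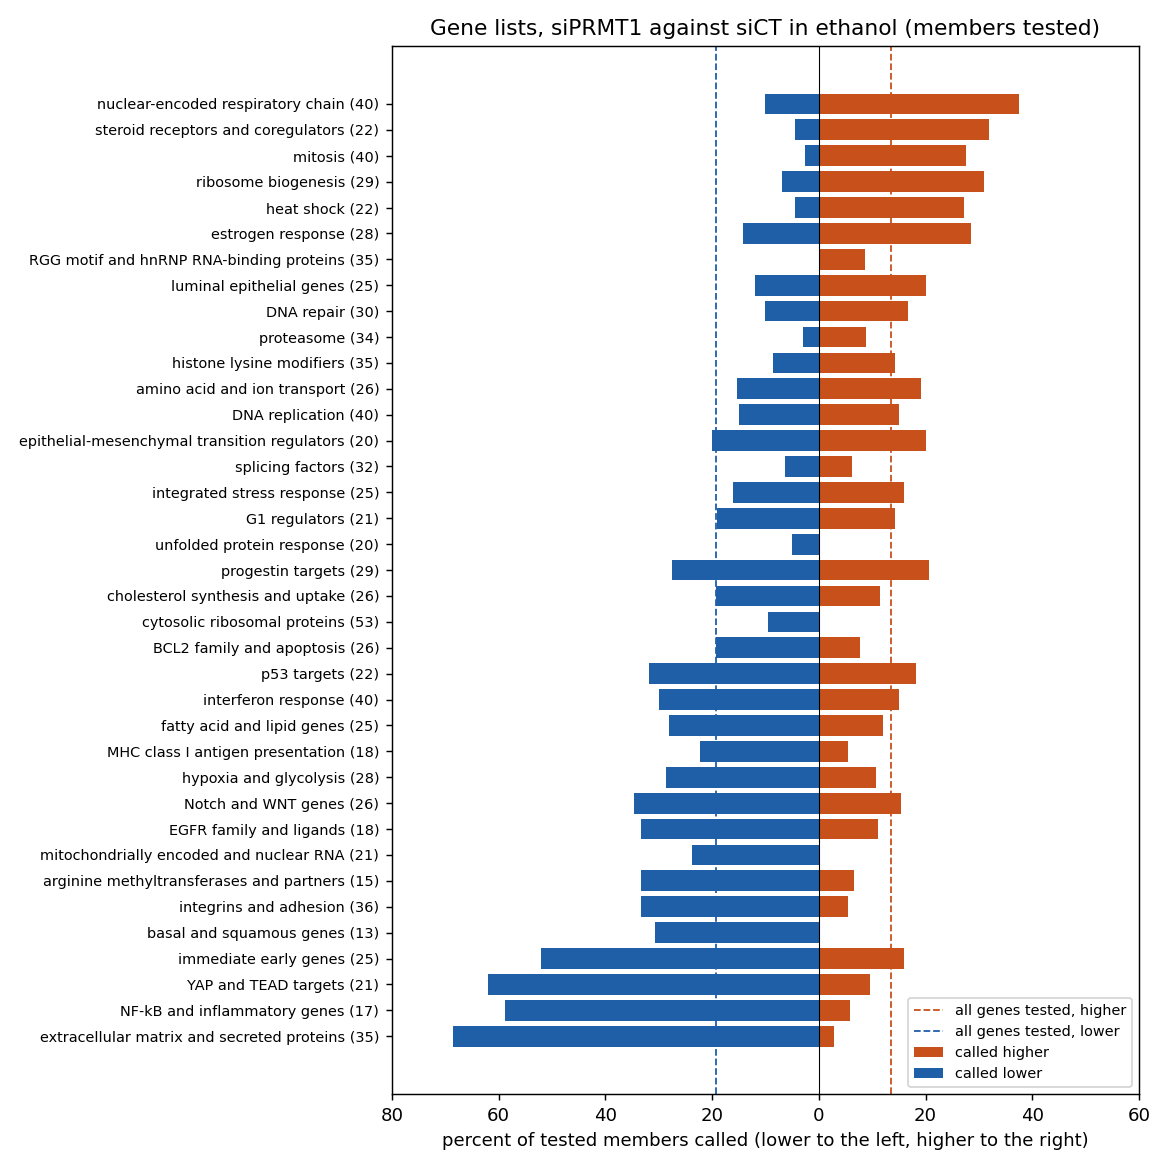
Shown are the gene lists with at least 10 members tested (number tested in brackets), leaving out the marker lists. Bars to the right show the percent of tested members called higher and bars to the left the percent called lower in siPRMT1. Dashed lines mark 13.6% and 19.2%, the shares over all genes tested. Extracellular matrix, YAP and TEAD, NF-kB and immediate early lists lie at the bottom, with 24 of 35, 13 of 21, 10 of 17 and 13 of 25 members called lower.

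Most genes of the extracellular matrix and of secreted proteins fell: of 35 members tested 24 were called lower and 1 higher, with a median log2 fold change of -1.38. TIMP2, an inhibitor of matrix metalloproteinases, fell from 386, 329 and 624 CPM to 113, 118 and 116 CPM (log2 -1.94 ± 0.23, adjusted p = 9.17e-05). TIMP3 of the same family fell from 6.05, 5.84 and 11.3 CPM to 1.12, 1.33 and 1.55 CPM (log2 -2.51 ± 0.27). FN1, fibronectin, fell from 52.1, 49.1 and 88.0 CPM to 22.3, 22.1 and 23.3 CPM (log2 -1.48 ± 0.22). The groups were separate for all 3, with siCT replicate 3 the highest library.

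HSPG2, which encodes the basement membrane proteoglycan perlecan, fell (log2 -1.96 ± 0.30). Collagen genes fell as well: COL18A1 had 9.59, 6.37 and 22.7 CPM in siCT and 2.05, 2.85 and 2.48 CPM in siPRMT1 (log2 -2.37 ± 0.42; -1.64 without siCT replicate 3), COL7A1 a log2 fold change of -2.46 ± 0.55 (-1.70 without it) and COL6A1 one of -1.85 ± 0.44 (-1.23 without it). The laminin chain gene LAMB3 fell, with a log2 fold change of -2.04 ± 0.45 (-1.45 without that library). PLAU, the urokinase that activates plasminogen at the cell surface, also fell (log2 -1.43 ± 0.34). The 1 member that rose was SPARC, a matricellular protein, from 0.327, 0.000 and 0.383 CPM to 0.683, 1.06 and 0.626 CPM, and its call was lost without each siPRMT1 library in turn (adjusted p = 0.0594 to 0.121).

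This list lay higher in siCT replicate 3 than in the other siCT libraries by a median of 1.15 (log2). Without that library 19 of the 35 were called lower and 3 higher, with a median of -0.90, and over all single libraries left out the lower calls ranged from 17 (without siPRMT1 replicate 3) to 24. Markers of stroma, endothelium and leukocytes had a lower sum in siPRMT1, but single members did not all fall. Their summed level, over 22 genes in the files, was 83.8 to 132 CPM in siCT and 45.4 to 45.8 CPM in siPRMT1, with 13 of 22 in siCT and 15 of 22 in siPRMT1 at no more than 3 counts per library on average. COL1A2, PDGFRB and HBB had 0 counts in all siCT libraries. DCN went the other way, with 4, 2 and 1 counts in the siCT replicates and 9, 8 and 14 in the siPRMT1 replicates. Of the 6 such markers tested 3 were called lower, among them ACTA2, smooth muscle actin, at 55.5, 46.0 and 42.4 CPM in siCT and 6.36, 8.06 and 7.97 CPM in siPRMT1 (log2 -2.68 ± 0.17, adjusted p = 2.26e-06). ACTA2 alone made up a large part of the summed siCT level. The part of these markers in the fall of the matrix genes was not tested.

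Integrins and other adhesion genes fell less uniformly, with 12 of 36 members tested called lower and 2 higher and a median of -0.36. ITGA5, the fibronectin receptor subunit, stood at 42.8, 27.7 and 80.5 CPM in siCT and 9.99, 10.9 and 9.90 CPM in siPRMT1 (log2 -2.29 ± 0.34, adjusted p = 0.000476). CDH3, P-cadherin, fell from 74.2, 50.3 and 138 CPM to 25.9, 26.9 and 26.7 CPM (log2 -1.72 ± 0.31), and CD44, the hyaluronan receptor, fell too (log2 -1.48 ± 0.29; -0.95 without siCT replicate 3). Both groups were separate in each gene. This list was raised in siCT replicate 3 by a median of 1.07, and without that library 8 were called lower and 3 higher, with a median of -0.17. ITGA5 and CDH3 then changed by -1.72 and -1.17.

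NF-kB and inflammatory genes followed, with 10 of 17 members tested called lower, 1 higher and a median of -0.89. The subunit gene NFKB1 fell from 23.8, 21.4 and 20.4 CPM to 8.76, 9.61 and 8.41 CPM (log2 -1.29 ± 0.13, adjusted p = 3.86e-05), and NFKB2 from 32.5, 21.6 and 28.1 CPM to 11.3, 11.8 and 11.3 CPM (log2 -1.26 ± 0.16). The 6 libraries separated by group in each of these. RELA, the main transactivating subunit, was not called: it had 177, 112 and 80.0 CPM in siCT and 154, 159 and 154 CPM in siPRMT1 (log2 0.34 ± 0.25, adjusted p = 0.315), and its groups overlapped.

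The cytokine gene TNF, a target and activator of the pathway, fell from 3.60, 2.95 and 6.94 CPM to 1.17, 1.17 and 0.898 CPM (log2 -2.03 ± 0.34). TRAF1, a receptor adaptor and NF-kB target, fell as well (log2 -2.14 ± 0.38), as did the adhesion receptor ICAM1 (-1.89 ± 0.34; -1.27 without siCT replicate 3) and the inhibitor NFKBIE (-1.30 ± 0.21). Unlike the matrix list, this list was not higher by its median in siCT replicate 3 (-0.02 against the other siCT libraries). Single members differed: among the siCT libraries TNF was highest there and NFKB1 lowest. Without that library 10 were again called lower and 1 higher, and the list median went from -0.89 to -0.66. Inflammatory cytokine genes such as IL6, CXCL2 and IL1B had at most a few counts in any library and were not tested.

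Of 25 immediate early genes tested, those that growth factors and stress switch on within minutes, 13 were called lower and 4 higher, with a median of -0.59. EGR1, a zinc finger transcription factor, had 36.3, 24.4 and 36.5 CPM in siCT and 4.72, 4.74 and 4.79 CPM in siPRMT1 (log2 -2.77 ± 0.17, adjusted p = 2.22e-06). It fell 6.81-fold, its 3 siPRMT1 libraries were nearly equal, and the value without siCT replicate 3 was -2.61. The promoter of EGR1 is shown because the serum response factor acts on several immediate early genes through the CArG box. It is the RefSeq sequence of chr5:138465229-138465528 on the plus strand of GRCh38.p14, 250 bases before to 50 bases after the gene's start, with CArG boxes in capitals.
EGR1: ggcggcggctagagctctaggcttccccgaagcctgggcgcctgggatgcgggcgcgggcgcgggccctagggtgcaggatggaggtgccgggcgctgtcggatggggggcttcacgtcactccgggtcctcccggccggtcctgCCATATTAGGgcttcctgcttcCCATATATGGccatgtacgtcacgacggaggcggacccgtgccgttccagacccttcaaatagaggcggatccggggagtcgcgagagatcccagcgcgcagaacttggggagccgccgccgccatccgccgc
The boxes begin 105 and 83 bases before the start. On either strand, 1.29% of the 27305 promoter sequences of the same length hold a CArG box. A match is a description of the letters and says nothing of binding in these cells.

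The AP-1 gene JUN fell from 184, 137 and 239 CPM to 91.3, 90.9 and 91.2 CPM (log2 -1.03 ± 0.19). FOSB fell from 14.1, 10.8 and 54.0 CPM to 4.29, 5.06 and 4.14 CPM (log2 -2.54 ± 0.61), and the orphan receptor gene NR4A1 from 19.4, 12.4 and 38.1 CPM to 7.34, 7.61 and 7.56 CPM (log2 -1.62 ± 0.38). The siCT replicate 3 library was by far the highest for FOSB and NR4A1, and without it their log2 fold changes were -1.41 and -1.02. Against this direction IER3, a stress-inducible early gene, rose from 54.9, 40.7 and 85.2 CPM to 179, 191 and 189 CPM (log2 1.63 ± 0.26, adjusted p = 0.000729). Without siCT replicate 3 the list held 10 lower and 6 higher calls and a median of -0.44, and the lower calls ranged from 9 (without siPRMT1 replicate 1) to 15 over single libraries left out.

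YAP and its relative TAZ are transcriptional coactivators that bind DNA through TEAD factors and respond to cell density and mechanical tension. Of 21 pathway members and targets tested 13 were called lower and 2 higher, with a median of -0.59. CTGF, a secreted matricellular protein and the textbook target, had 4.17, 3.45 and 13.0 CPM in siCT and 0.546, 0.293 and 0.299 CPM in siPRMT1 (log2 -4.13 ± 0.63, adjusted p = 0.000591; -3.26 without siCT replicate 3). CYR61 of the same family fell from 172, 121 and 379.8 CPM to 38.8, 40.7 and 41.4 CPM (log2 -2.47 ± 0.37; -1.80 without that library). Groups were separate in both, with siCT replicate 3 the highest library.

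The CTGF promoter is shown for its GGAATG motifs, the letters that TEAD factors recognise. It is RefSeq's sequence of chr6:131951323-131951622 on the minus strand of GRCh38.p14, over the same window around the start, with GGAATG in capitals.
CTGF: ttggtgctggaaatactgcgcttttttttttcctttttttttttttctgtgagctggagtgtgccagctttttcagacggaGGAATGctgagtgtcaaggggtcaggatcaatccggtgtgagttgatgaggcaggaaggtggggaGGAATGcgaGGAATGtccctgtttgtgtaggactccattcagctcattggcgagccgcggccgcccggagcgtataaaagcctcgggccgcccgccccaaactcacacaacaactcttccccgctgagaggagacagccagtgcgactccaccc
The motifs begin 169, 104 and 95 bases before the start, and 14% of the 27305 promoters hold GGAATG on either strand.

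Of the pathway's own genes, TEAD3 fell from 54.7, 38.4 and 43.6 CPM to 22.7, 23.8 and 22.4 CPM (log2 -0.99 ± 0.15) and the inhibitory kinase gene LATS2 from 28.6, 24.2 and 26.5 CPM to 15.1, 14.3 and 15.2 CPM (log2 -0.83 ± 0.12). ANKRD1, a further target, fell as well (log2 -1.22 ± 0.30). YAP1 itself was not called, at 159.7, 172 and 119 CPM in siCT and 185, 185 and 187 CPM in siPRMT1 (log2 0.31 ± 0.17, adjusted p = 0.178). Every YAP1 value in siPRMT1 lay above every value in siCT, but the siCT libraries differed widely. Without siCT replicate 3 the list again held 13 lower and 2 higher calls, with a median of -0.67. With library totals alone in place of TMM 5 were called lower and 0 higher.

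Genes of the steroid receptors and their coregulators went the other way, with 7 of 22 members tested called higher, 1 lower and a median of 0.22. The progesterone receptor gene PGR rose from 488, 655 and 407 CPM to 1106, 1134 and 1147 CPM (log2 1.13 ± 0.20, adjusted p = 0.00147), and the estrogen receptor gene ESR1 from 72.7, 85.2 and 75.6 CPM to 179, 172 and 176 CPM (log2 1.17 ± 0.13, adjusted p = 5.81e-05). PGR was 2.18-fold and ESR1 2.26-fold higher, with no overlap of groups. PGR differed more among the siCT libraries than among the siPRMT1 libraries.

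The coactivator gene NCOA3 rose from 141, 154 and 115 CPM to 239.7, 257 and 259 CPM (log2 0.88 ± 0.16), and TFAP2C, an AP-2 factor that governs ESR1 transcription in luminal cells, from 72.1, 73.3 and 59.3 CPM to 129.5, 129 and 129 CPM (log2 0.92 ± 0.13). FOXA1, the pioneer factor of both receptors, was not called: it stood at 639, 736 and 478 CPM in siCT and 707, 711 and 732 CPM in siPRMT1 (log2 0.21 ± 0.18, adjusted p = 0.38), and the groups overlapped. The list's higher calls ranged from 4 (without siPRMT1 replicate 2) to 8 (without siCT replicate 2) over single libraries left out.

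Of 25 luminal epithelial genes tested 5 were called higher and 3 lower, with a median of -0.02 (0.12 without siCT replicate 3). The keratin gene KRT18 went from 3398, 3079 and 2104 CPM to 7649, 7734 and 7520.5 CPM (log2 1.42 ± 0.24, adjusted p = 0.0011) and KRT8 from 1420.2, 869.7 and 833 CPM to 2031, 2197 and 2032 CPM (log2 1.00 ± 0.22). ELF5, a transcription factor of the alveolar secretory lineage, went from 261, 307 and 212 CPM to 538, 512 and 518 CPM (log2 1.01 ± 0.16). The secreted protein gene SCUBE2, also linked to luminal tumours, fell (log2 -1.50 ± 0.30; -0.999 without siCT replicate 3).

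Estrogen response genes were called higher in 8 of 28 and lower in 4, with a median of 0.03. MYB, an oncogene that estrogen induces, rose from 4.47, 4.63 and 4.10 CPM to 13.6, 14.4 and 14.5 CPM (log2 1.68 ± 0.14, adjusted p = 1.1e-05). SUSD3, an estrogen target of the cell membrane, rose from 11.5, 8.52 and 11.4 CPM to 20.7, 23.3 and 19.996 CPM (log2 1.03 ± 0.16). IGFBP4, an inhibitory binding protein of insulin-like growth factors, fell from 112, 74.9 and 129 CPM to 43.2, 46.3 and 44.7 CPM (log2 -1.23 ± 0.19), and the interleukin-1 receptor gene IL1R1 fell as well (log2 -1.18 ± 0.15). Each of these separated the 6 libraries by group. Without siCT replicate 3 this list had 11 higher and 3 lower calls and a median of 0.38, and it lay 0.45 higher (log2 median) in that library than in the other siCT libraries.

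Progestin targets were split without hormone, with 6 of 29 members tested called higher, 8 lower and a median of 0.00. S100P, a calcium-binding protein, rose from 29.8, 24.4 and 18.4 CPM to 88.0, 85.8 and 88.9 CPM (log2 1.85 ± 0.17, adjusted p = 2.07e-05). PDK4, which restrains entry of pyruvate into mitochondria, rose by 0.92 ± 0.20 on the log2 scale. The sodium channel subunit gene SCNN1A fell from 78.9, 64.4 and 153 CPM to 37.0, 37.7 and 37.4 CPM (log2 -1.40 ± 0.29; -0.88 without siCT replicate 3), and the clock gene PER1 fell too (log2 -0.91 ± 0.22). With library totals alone 6 rose and 2 fell, and without siCT replicate 1 the lower calls were 4.

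Mitosis genes rose in part: 11 of 40 members tested were called higher and 1 lower, with a median of 0.33. The siPRMT1 libraries lay above all siCT libraries in 20 of 40, beside 20.9% of all genes tested. BUB1, a spindle checkpoint kinase, rose from 11.3, 14.2 and 10.9 CPM to 22.4, 21.5 and 21.1 CPM (log2 0.83 ± 0.14, adjusted p = 0.00111). ECT2, which directs the contractile ring of dividing cells, rose by 0.82 ± 0.18 on the log2 scale, the cyclin gene CCNB1 by 0.81 ± 0.19 and HMMR by 0.80 ± 0.18. The higher calls ranged from 7 (without siPRMT1 replicate 3) to 19 (without siCT replicate 2) over single libraries left out. With library totals alone 3 were called higher.

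Genes of DNA replication had 6 of 40 called higher, 6 lower and a median of -0.05. GINS4, a subunit of the replicative helicase, fell from 12.51, 12.04 and 9.678 CPM to 7.67, 7.56 and 7.64 CPM (log2 -0.59 ± 0.15, adjusted p = 0.0115). Among G1 regulators 3 of 21 rose and 4 fell, with a median of 0.27. The kinase inhibitor genes CDKN2A and CDKN2B fell, with log2 fold changes of -1.09 ± 0.14 and -0.90 ± 0.18, and CDK2, which drives S phase entry, fell from 77.5, 61.1 and 57.2 CPM to 37.8, 40.3 and 41.1 CPM (log2 -0.72 ± 0.14). CDKN1C, another inhibitor, rose from 0.654, 0.531 and 0.383 CPM to 1.34, 1.73 and 1.66 CPM (log2 1.54 ± 0.22), and the cyclin gene CCND1 rose by 0.68 ± 0.16 on the log2 scale. Over single libraries left out the replication genes had 0 to 9 higher and 1 to 9 lower calls, and with library totals alone 0 of either. The G1 regulators had 8 higher calls without siCT replicate 2.

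Genes of the respiratory chain that the nucleus encodes had the highest share of increases among the lists, with 15 of 40 called higher, 4 lower and a median of 0.38. ATP5B, the catalytic subunit of ATP synthase, rose from 665, 593 and 402 CPM to 1224, 1232 and 1194 CPM (log2 1.14 ± 0.21, adjusted p = 0.00177). NDUFS1, the largest subunit of complex I, rose from 38.0, 46.1 and 31.3 CPM to 82.9, 83.1 and 84.0 CPM (log2 1.11 ± 0.16). CYCS, cytochrome c, rose from 30.6, 63.4 and 20.7 CPM to 125, 124 and 145 CPM (log2 1.78 ± 0.34). All siPRMT1 libraries exceeded all siCT libraries in these, and in 22 of the 40 genes, beside 20.9% of all genes tested.

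Opposite to them NDUFV2, a core subunit of complex I, fell from 3.11, 3.16 and 4.26 CPM to 0.819, 0.665 and 0.680 CPM (log2 -2.26 ± 0.22). The higher calls of the list ranged from 7 (without siPRMT1 replicate 1) to 16 over single libraries left out, and 3 were called higher with library totals alone. Mitochondrially encoded genes and abundant nuclear RNAs showed 5 of 21 lower and 0 higher, with a median of -0.83. They were raised in siCT replicate 3 by a median of 1.65, and without it 1 was called lower, with a median of -0.12.

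Ribosome biogenesis genes rose in 9 of 29 and fell in 2, with a median of 0.24. GNL3, a nucleolar GTPase, rose from 21.5, 25.0 and 20.7 CPM to 39.7, 37.4 and 36.4 CPM (log2 0.76 ± 0.13, adjusted p = 0.00105). UTP20 and WDR12, factors of small and large subunit assembly, rose by 0.80 ± 0.12 and 0.77 ± 0.13, and POLR1B, a subunit of RNA polymerase I, by 0.74 ± 0.15. Of these 11 calls 9 held in each comparison that left out 1 library, and with library totals alone 3 were called higher and 0 lower.

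Cytosolic ribosomal protein genes were called lower in 5 of 53 and higher in 0, with a median of -0.27. RPL9 fell from 27.4, 29.1 and 40.0 CPM to 20.9, 19.0 and 18.5 CPM (log2 -0.72 ± 0.16). This list lay 0.78 lower in siCT replicate 3 than in the other siCT libraries, and without that library 21 were called lower, with a median of -0.39. With library totals alone 0 were called, and without siPRMT1 replicate 1 the lower calls were 2. Many ribosomal protein genes have near-identical processed copies, so reads that map to several places may be lost or shared.

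Of 15 arginine methyltransferases and partners tested 5 were called lower, PRMT1 among them, and 1 higher, with a median of -0.13. The median was 0.04 without siCT replicate 3 and 0.09 with library totals alone, where 3 were lower and 0 higher. PRMT2, a weakly active relative that also binds nuclear receptors, fell from 21.8, 17.6 and 18.8 CPM to 10.6, 9.50 and 10.1 CPM (log2 -0.95 ± 0.14, adjusted p = 0.000567). WDR77, the essential partner of PRMT5, fell from 13.3, 9.76 and 8.97 CPM to 4.53, 4.55 and 5.03 CPM (log2 -1.19 ± 0.18), and BTG2, an antiproliferative protein that binds PRMT1, from 29.3, 22.4 and 28.7 CPM to 8.14, 8.22 and 8.11 CPM (log2 -1.72 ± 0.14). The groups were separate in all 3.

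CARM1, the coactivator methyltransferase, was called lower (60.9, 40.3 and 35.8 CPM against 31.1, 30.8 and 29.2 CPM, log2 -0.59 ± 0.18, adjusted p = 0.0253), but the call was lost without siCT replicate 1 (log2 -0.33, adjusted p = 0.0855) and without each siPRMT1 library (adjusted p = 0.0697 to 0.0888). PRMT5, the main enzyme of symmetric dimethylation, was not called, at 25.3, 19.6 and 15.2 CPM in siCT and 25.4, 26.5 and 27.8 CPM in siPRMT1 (log2 0.40 ± 0.17, adjusted p = 0.0881). PRMT8, the closest relative of PRMT1, had 0 counts in all 12 libraries. RNA-binding proteins with RGG motifs, a main class of PRMT1 substrates, were called higher in 3 of 35, with a median of 0.08. Without siCT replicate 2 the higher calls were 12 and the median 0.22, and with library totals alone 0 were called. HNRNPU, a nuclear scaffold protein of this class, rose from 80.1, 91.3 and 62.1 CPM to 116, 131 and 132 CPM (log2 0.70 ± 0.17).

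Interferon response genes moved in both directions, with 12 of 40 members tested called lower, 6 higher and a median of -0.36. MX1, an antiviral GTPase, fell from 433, 349 and 336 CPM to 200.4, 207 and 199 CPM (log2 -0.88 ± 0.15), and the ubiquitin ligase gene TRIM21 from 14.8, 12.3 and 11.5 CPM to 5.84, 5.32 and 4.43 CPM (log2 -1.31 ± 0.15, adjusted p = 9.88e-05). OASL, which enhances RNA sensing, rose from 41.9, 34.5 and 28.8 CPM to 106, 104 and 106 CPM (log2 1.58 ± 0.15, adjusted p = 2.24e-05). IFIT2, which binds viral RNA, rose from 31.1, 41.8 and 28.7 CPM to 83.8, 84.5 and 85.7 CPM (log2 1.32 ± 0.15). No library of either group reached the other group in any of the 4. In the absence of siCT replicate 3 the list held 17 lower and 7 higher calls, and with library totals alone 5 lower and 6 higher.

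Genes of MHC class I antigen presentation were called lower in 4 of 18 and higher in 1, with a median of -0.53. The aminopeptidase gene ERAP1, which trims peptides for loading, fell from 62.9, 69.6 and 144 CPM to 36.9, 37.3 and 36.4 CPM (log2 -1.32 ± 0.27; -0.78 without siCT replicate 3). B2M, the invariant light chain, rose from 494, 615 and 1091 CPM to 1441, 1413 and 1454 CPM (log2 0.97 ± 0.27, adjusted p = 0.0162), a call lost without siCT replicate 1 (log2 0.75, adjusted p = 0.0538). This list was raised in siCT replicate 3 by a median of 1.08, and without that library 2 were called lower, with a median of -0.11. The lower calls were 9 without siCT replicate 2 (median -0.73), 6 without siCT replicate 1 (median -0.69) and 1 to 2 without single siPRMT1 libraries.

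Of 18 genes of the EGFR family and its ligands 6 were called lower and 2 higher, with a median of -0.06. EGFR itself, the receptor of epidermal growth factor, fell from 51.1, 54.6 and 118 CPM to 20.1, 20.7 and 20.5 CPM (log2 -1.87 ± 0.30, adjusted p = 0.000728). The ligand gene HBEGF fell from 3.65, 3.83 and 6.56 CPM to 1.53, 1.36 and 1.61 CPM (log2 -1.62 ± 0.32), and BTC, another ligand gene, fell too (log2 -1.27 ± 0.28). LRIG1, a negative regulator of these receptors, fell from 70.9, 56.9 and 128 CPM to 33.0, 34.5 and 32.4 CPM (log2 -1.36 ± 0.27). Without siCT replicate 3, which was the highest siCT library for each of these, EGFR changed by -1.31 and LRIG1 by -0.88 (log2), and the list held 6 lower and 8 higher calls. Its higher calls fell to 0 without siPRMT1 replicate 3 and were 5, beside 5 lower, with library totals alone.

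Among Notch and WNT genes 9 of 26 were called lower and 4 higher, with a median of -0.57. The increases included RNF43, which removes WNT receptors from the cell surface, from 8.013, 8.997 and 12.03 CPM to 30.0, 31.7 and 32.4 CPM (log2 1.70 ± 0.16, adjusted p = 1.93e-05), and LEF1, a transcription factor of the pathway, from 2.51, 3.39 and 3.28 CPM to 7.23, 7.26 and 7.86 CPM (log2 1.29 ± 0.15). WNT5A and NKD1, a ligand and a feedback inhibitor, rose from low levels: WNT5A had 0.136, 0.206 and 0.273 CPM and then 0.683, 0.772 and 0.626 CPM (log2 1.81 ± 0.35), and NKD1 had 0.0545, 0.0885 and 0.219 CPM and then 0.573, 0.585 and 0.517 CPM (log2 2.39 ± 0.55; 2.97 without siCT replicate 3). The Notch ligand gene DLL1 fell (log2 -1.53 ± 0.33). All 4 increases were called in the absence of any 1 library. Without siCT replicate 3, in which the list was raised by a median of 0.86, 5 were called lower and 5 higher, with a median of -0.16. The lower calls ranged from 4 (without siPRMT1 replicate 1) to 12 (without siCT replicate 2).

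Metabolic genes changed gene by gene. In the hypoxia and glycolysis list 8 of 28 were called lower and 3 higher, with a median of -0.05. The lower calls were 4 without siPRMT1 replicate 1, 5 without each of the other siPRMT1 libraries and 3 with library totals alone, and without siCT replicate 1 there were 6 of each, with a median of 0.20. HK2, hexokinase, rose from 12.46, 12.01 and 11.70 CPM to 26.5, 29.8 and 27.9 CPM (log2 1.22 ± 0.12, adjusted p = 2.63e-05), and LDHA, lactate dehydrogenase, from 659.6, 726 and 482 CPM to 1258, 1204 and 1258 CPM (log2 0.99 ± 0.20). PFKFB3, which makes the activator of phosphofructokinase, fell from 37.3, 32.7 and 34.0 CPM to 15.6, 14.7 and 15.9 CPM (log2 -1.17 ± 0.12), and PFKM, phosphofructokinase itself, fell too (log2 -0.78 ± 0.14). The peptide hormone gene ADM fell from 34.7, 36.8 and 84.0 CPM to 9.75, 9.29 and 8.43 CPM (log2 -2.50 ± 0.34; -1.90 without siCT replicate 3).

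Of the cholesterol genes 3 of 26 rose and 5 fell, with a median of -0.11. HMGCS1, at the entry of the pathway, rose from 29.3, 40.4 and 27.6 CPM to 77.6, 77.8 and 86.6 CPM (log2 1.31 ± 0.16, adjusted p = 0.000123), while the later enzyme genes LSS and CYP51A1 fell (log2 -0.97 ± 0.20 and -1.31 ± 0.24). Of the fatty acid and lipid genes 3 of 25 rose and 7 fell, with a median of -0.09. ACLY, which makes cytosolic acetyl-CoA, fell from 205, 197 and 141 CPM to 97.5, 96.8 and 90.4 CPM (log2 -0.93 ± 0.17). DGAT2, of triglyceride synthesis, rose from 0.899, 0.619 and 1.20 CPM to 2.73, 3.49 and 2.97 CPM (log2 1.80 ± 0.23). In both lists the sign of the median turned without siCT replicate 3 (0.10 and 0.23) and with library totals alone (0.13 and 0.18). The lower calls of the cholesterol list ranged from 2 (without siPRMT1 replicate 1) to 11 (without siCT replicate 2) and those of the lipid list from 3 (without siCT replicate 3) to 8.

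Transporters were likewise mixed, with 5 of 26 genes of amino acid and ion transport higher, 4 lower and a median of 0.05. SLC7A5, the large neutral amino acid transporter, rose from 76.2, 49.4 and 113 CPM to 177, 189.6 and 176 CPM (log2 1.19 ± 0.26). SLC30A1, the zinc exporter, rose from 6.16, 7.82 and 10.9 CPM to 25.7, 25.8 and 25.7 CPM (log2 1.65 ± 0.22). The taurine transporter gene SLC6A6 fell (log2 -1.57 ± 0.28; -1.06 without siCT replicate 3), as did SLC16A3, which exports lactate (-1.81 ± 0.36; -1.22 without it). Without that library 11 rose and 4 fell, and the median was 0.54.

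Chaperones rose in part. Heat shock genes were called higher in 6 of 22 and lower in 1, with a median of 0.34. HSP90AA1, the inducible cytosolic HSP90 that steroid receptors need for hormone binding, rose from 237, 351 and 249 CPM to 514, 514 and 502 CPM (log2 0.87 ± 0.18, adjusted p = 0.00328). HSPA9, the mitochondrial HSP70, rose from 99.3, 104 and 77.9 CPM to 194, 192 and 202 CPM (log2 1.06 ± 0.15), and HSPH1, a large cytosolic chaperone, from 10.8, 16.4 and 12.7 CPM to 30.74, 27.996 and 28.95 CPM (log2 1.13 ± 0.16). Each siPRMT1 library exceeded each siCT library. The higher calls ranged from 5 to 9 over single libraries left out and were 4 with library totals alone. This list lay 0.59 lower (log2 median) in siCT replicate 3 than in the other siCT libraries. Without that library 6 were called higher and 2 lower, with a median of 0.21.

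The same depletion was then read in the R5020 libraries, where 4559 genes were called (25.7%), 2046 higher (11.5%) and 2513 lower (14.2%). Of the 2407 genes that rose in ethanol 1568 also rose in R5020, which is 65.1% of the ethanol list and 76.6% of the R5020 list. Of the 3399 that fell 2059 also fell in R5020, or 60.6% and 81.9% of the lists. In the opposite direction 4 and 6 were called. Without the siCT replicate 3 ethanol library and the siCT replicate 1 R5020 library, which had 52.4% mitochondrial counts, 2621 genes were called higher in both (72.2% of the ethanol list and 75.7% of the R5020 list) and 2864 lower in both (65.5% and 81.2%).

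Values of single genes can be set beside those in ethanol. S100A8 rose by 4.21 ± 0.22 on the log2 scale in R5020, CASP14 by 3.61 ± 0.22 and LIN28A by 2.51 ± 0.17. MCAM had a log2 fold change of -3.22 ± 0.44 in R5020, EGR1 one of -2.93 ± 0.18 and CTGF one of -3.28 ± 0.59. The lists of matrix genes (17 of 35 lower, 1 higher), NF-kB genes (9 of 17 lower, 2 higher), immediate early genes (13 of 25 lower, 2 higher) and YAP and TEAD genes (10 of 21 lower, 2 higher) had more lower than higher calls in R5020 as well. The siCT R5020 replicate 1 library differed from the other siCT R5020 libraries by a median log2 of 0.83 for the matrix list. For the immediate early, NF-kB and YAP and TEAD lists that median was 0.35, 0.08 and -0.16. MCAM had 14.2, 7.80 and 6.75 CPM in siCT R5020 replicates 1, 2 and 3, and EGR1 had 15.5, 14.1 and 13.2 CPM. Mitosis genes had 3 of 40 called higher in R5020 and 1 lower. DNA replication genes had 0 of 40 higher and 19 lower in R5020 (median -0.50), where ethanol gave 6 of each, and the difference between the lists' counts was not tested.

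A test of the difference between both settings, R5020 minus ethanol, called 14 genes, 8 with a higher and 6 with a lower value in R5020. Of the genes described here MYB was called: depletion changed it by 1.68 in ethanol and -0.05 ± 0.15 in R5020, where it had 2.06, 2.45 and 2.16 CPM in siCT and 2.23, 2.11 and 2.11 CPM in siPRMT1 (difference -1.73 ± 0.21, adjusted p = 0.0203). LEF1 (0.19 in R5020), CDKN1C (0.13) and SLC30A1 (0.15) were called in ethanol and not in R5020, but for them the difference did not pass the threshold (adjusted p = 0.0875, 0.133 and 0.133). Of the receptor genes PGR rose by 0.70 ± 0.20 and ESR1 by 0.52 ± 0.13 in R5020, and their differences from ethanol did not pass the threshold either (adjusted p = 1 and 0.434).

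**Figure D4:**
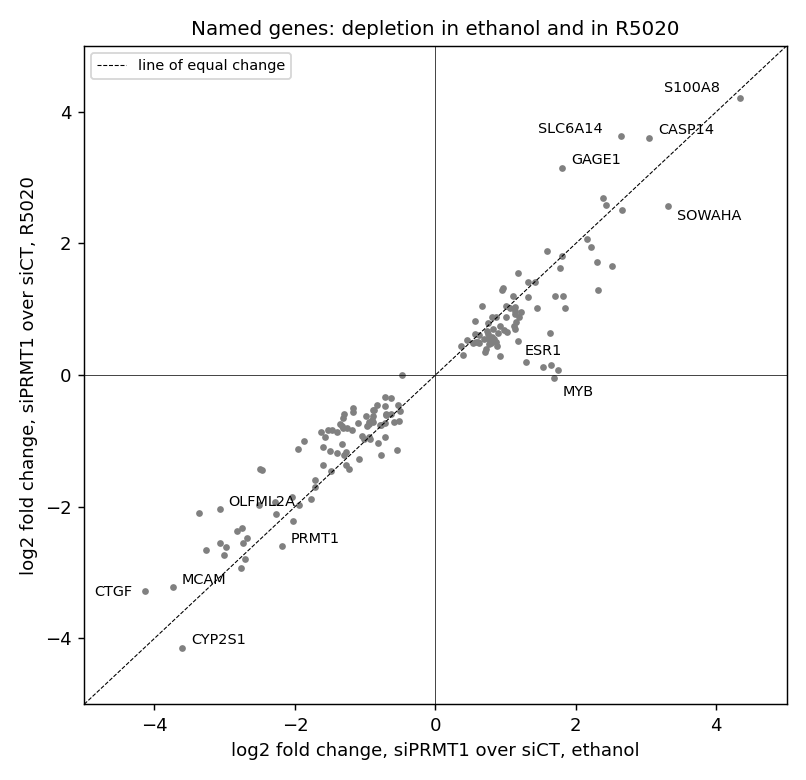
Each point is a gene named in these results, with the log2 fold change of siPRMT1 over siCT in ethanol on the horizontal axis and in R5020 on the vertical axis; the dashed line marks equal change. Points scatter around the line, and MYB lies near 0 on the vertical axis (-0.05) with 1.68 on the horizontal axis.

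The list medians show how far 1 library carries the ethanol comparison. Leaving out siCT replicate 3 brought the median of the matrix list from -1.38 to -0.90 and that of the mitochondrially encoded and nuclear RNA from -0.83 to -0.12. For the unfolded protein response it turned the median from -0.26 to 0.23, and for the integrated stress response from -0.13 to 0.18. The YAP and TEAD list moved from -0.59 to -0.67, the respiratory chain from 0.38 to 0.33 and mitosis from 0.33 to 0.29.

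**Figure D5:**
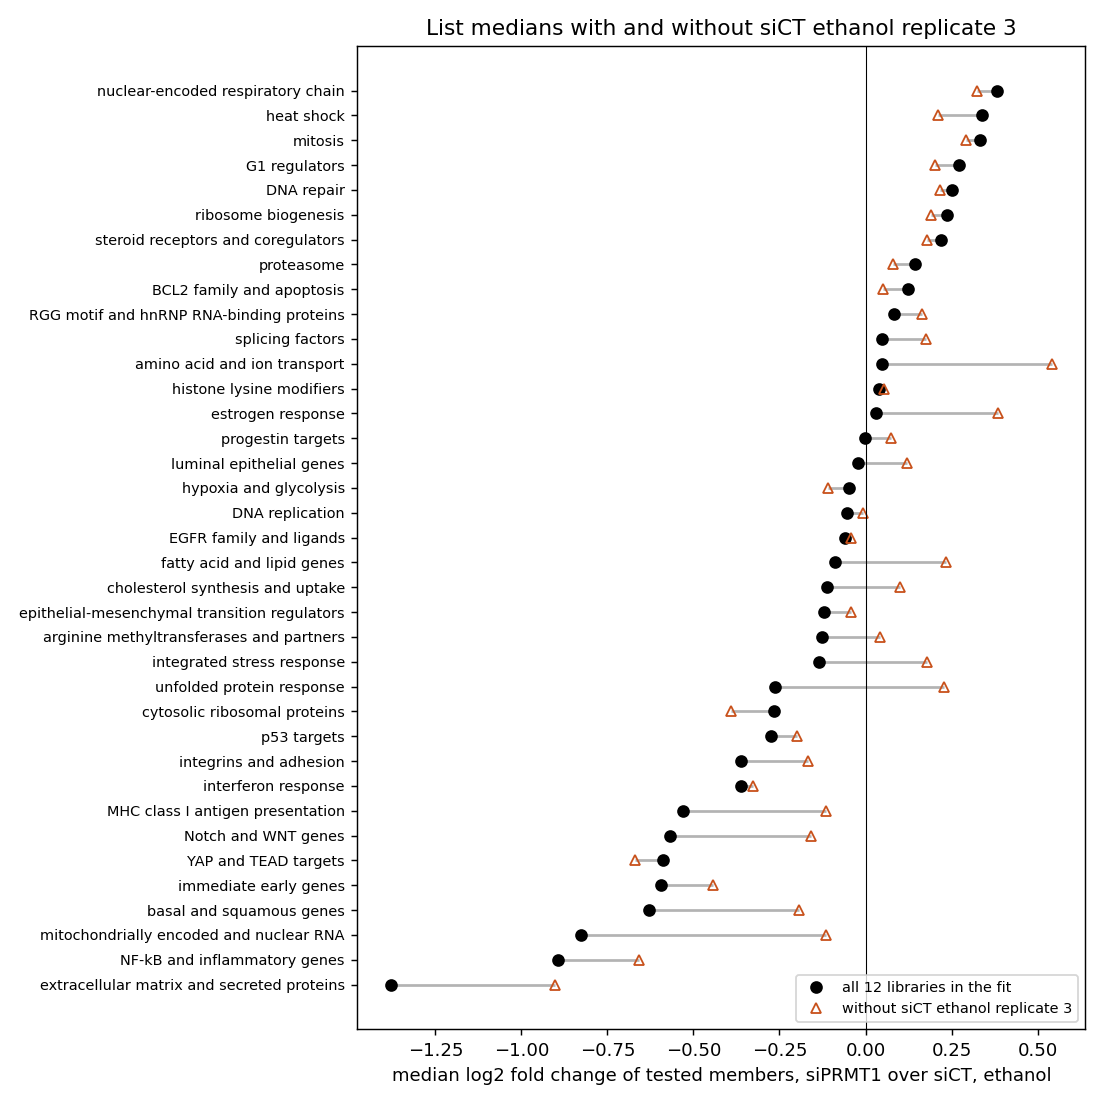
Shown are the gene lists with at least 10 members tested, leaving out the marker lists. The median log2 fold change of tested members in ethanol is given over all libraries (black circles) and without siCT ethanol replicate 3 (open triangles). The longest lines belong to mitochondrially encoded and nuclear RNA (-0.83 and -0.12), amino acid and ion transport (0.05 and 0.54), unfolded protein response (-0.26 and 0.23) and the extracellular matrix list (-1.38 and -0.90).

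For this comparison 4081 genes of the authors' deposited table carried an adjusted p under 0.05, 1819 higher and 2262 lower. Of these, 3986 were among the genes tested here, and 3937 genes of the authors' deposited table were called here in the same direction and 0 in the opposite one.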

How the data were processed

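RNA-seq was available for 12 T47D libraries in 4 groups of 3, grouped by their siRNA and treatment labels. The authors deposited read counts per gene symbol for each sample, whole numbers for 55765 genes, not normalized. The build hg19, HTSeq 0.9.1, DESeq2 and Bowtie2 2.3.2.2 were used, per the submitters' processing notes. No role or order is given there, and aligner settings, annotation, strand setting and handling of reads that fit several genes were not given in the sources used here. RNA was extracted with TRIzol and libraries were made with a Lexogen SENSE mRNA kit, per the labels' protocols.

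The tests on counts used R 4.3.3 with edgeR 4.0.16. Genes were filtered with filterByExpr over the 4 groups (17727 left), libraries scaled by TMM, and 1 mean per group fitted over all 12 libraries, with 8 residual degrees of freedom. The quasi-likelihood test of siPRMT1 against siCT was adjusted by Benjamini-Hochberg over all genes tested and called under 0.05. P-values rest on a spread estimated for each gene over the 4 groups together. The siCT ethanol libraries differed among themselves far more than the siPRMT1 ethanol libraries did, so the p-values do not measure the spread of either group alone. The sample titles call the libraries replicates and do not say whether each came from a separate culture. The script was tested on simulated counts with the same spread in all groups. These data differ in that, so the simulation cannot show the error rates here. Levels are CPM after TMM scaling. Alternatives used limma 3.58.1 and DESeq2 1.42.0, library totals, another filter, a replicate block, removal of mitochondrial genes and libraries left out.

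Named genes are PRMT1, PGR, ESR1, the 12 highest and 12 lowest called fold changes (mean of at least 5 CPM, separate groups, no clone names, pseudogenes or mitochondrially encoded genes) and up to 4 members per list with the smallest adjusted p. Some further list members were named after their values were seen. Some genes are not reported here. The members and the 41 lists were chosen with earlier results of these data known. The authors' deposited table of log2 fold changes and adjusted p-values was used only to compare its calls. Promoters are RefSeq sequences of GRCh38.p14, used without coordinates from the hg19 counts.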

Additional observations from a re-analysis of the deposited data

Results flagged for a closer look

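MYB, an oncogene that estrogen induces, stood out because its response to PRMT1 depletion differed between the treatments by a test of that difference. In ethanol it had 4.47, 4.63 and 4.10 CPM in the siCT replicates and 13.6, 14.4 and 14.5 CPM in the siPRMT1 replicates, a log2 fold change of 1.68 ± 0.14. With R5020 the values were 2.06, 2.45 and 2.16 CPM and 2.23, 2.11 and 2.11 CPM, a log2 fold change of -0.05 ± 0.15. The difference, R5020 minus ethanol, was -1.73 ± 0.21 on the log2 scale (Benjamini-Hochberg adjusted p = 0.0203, quasi-likelihood test of edgeR). In each of the ethanol siPRMT1 libraries MYB lay above every other library, and the 6 R5020 libraries overlapped between siRNA groups.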

How the results depend on the processing

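Scaling by library totals alone moved the median log2 fold change of all genes from -0.07 to 0.11, and changes are read relative to that shift; it gave 3021 calls, 1325 higher and 1696 lower. A fit of only the 6 ethanol libraries gave 3324 calls, 1284 higher and 2040 lower. Leaving out 1 library at a time gave 3487 to 7827 calls, 1393 to 3462 higher and 2094 to 4365 lower, and the share of higher calls was 50.3% without siCT replicate 3 against 41.5% over all libraries. Without the pair of siCT libraries that stood apart, a choice made after seeing the data, 8003 genes were called, 3628 higher and 4375 lower. DESeq2 called 6408 genes, limma voom with quality weights 5448, the test without a filter on low counts 6151, and the test without mitochondrially encoded genes 5810.

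Replicate numbers are shared by the groups, but no label says that a number marks a shared culture or day. Deviations of same-numbered siCT and siPRMT1 libraries correlated at -0.06, -0.19 and -0.05 over genes, so the numbers were not taken as pairs. With the replicate block 4936 genes were called, 2084 higher and 2852 lower.

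PRMT1 was called lower under every alternative run, between -2.27 and -2.03 with 1 library left out. Over 191 single genes and all alternatives, 2670 values were compared with the reported ones. Direction and call were the same in 2470, the call was lost in 197 and gained in 3, and no gene called changed direction. With library totals alone 53 genes lost their call, and with only the 6 ethanol libraries 32. A total of 125 genes kept both direction and call under every alternative. Most of the 191 were chosen for a small adjusted p or a large fold change in the main fit, which favours such stability. Over all called genes, 1246 of 2407 higher and 1786 of 3399 lower were called with each single library left out. Library totals alone kept 1060 of the higher and 1696 of the lower calls. Genes of a few CPM rest on few counts, and P-values over 3 libraries a group limit what can be called.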

Other observations

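Apoptosis and p53 genes showed no common direction. Of 22 p53 targets tested 4 were called higher and 7 lower, with a median log2 fold change of -0.28. RRM2B, the ribonucleotide reductase subunit that p53 induces, rose from 22.3, 37.7 and 18.5 CPM in the siCT ethanol libraries to 57.7, 56.2 and 61.4 CPM in the siPRMT1 ethanol libraries (log2 1.15 ± 0.25). TP53INP1, of autophagy and stress, rose as well (log2 0.71 ± 0.13), while the oxidoreductase gene TP53I3 fell (log2 -0.71 ± 0.16). Of 26 genes of the BCL2 family and apoptosis 2 rose and 5 fell. The lower calls of that list were 2 without each siPRMT1 library in turn and 0 with library totals alone. BCL2L11, which encodes the death-promoting protein BIM, rose from 17.6, 16.2 and 8.97 CPM to 26.3, 27.4 and 29.6 CPM (log2 0.95 ± 0.22), and BBC3, which encodes PUMA, fell from 1.80, 1.30 and 1.42 CPM to 0.737, 0.798 and 0.816 CPM (log2 -0.95 ± 0.22). Groups were separate in each of these genes.

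Regulators of the epithelial-mesenchymal transition were called higher in 4 of 20 and lower in 4. ID2, an inhibitor of helix-loop-helix factors, rose from 21.6, 19.9 and 24.4 CPM to 51.4, 49.3 and 49.0 CPM (log2 1.18 ± 0.13), and its relatives ID3 and ID1 fell (log2 -1.02 ± 0.19 and -1.48 ± 0.28). The cytokine gene TGFB1 fell from 1.04, 0.590 and 1.91 CPM to 0.218, 0.346 and 0.190 CPM (log2 -2.14 ± 0.45), and GRHL1, an epithelial transcription factor, rose (log2 0.62 ± 0.12). Among histone lysine modifiers 5 of 35 rose and 3 fell. The demethylase gene KDM3A rose from 17.93, 22.98 and 20.67 CPM to 33.8, 34.3 and 35.4 CPM (log2 0.75 ± 0.13), and the methyltransferase gene SETDB1 fell (log2 -0.70 ± 0.16). Of the integrated stress response 4 of 25 rose and 4 fell: PSAT1, of serine synthesis, rose (log2 1.11 ± 0.23), and the transcription factor gene ATF5 fell (log2 -1.28 ± 0.22). Adjusted p-values of the genes named in both paragraphs lay between 6.61e-05 and 0.00714 by edgeR's quasi-likelihood test. Splicing factors (2 of 32 higher and 2 lower), proteasome genes (3 of 34 higher and 1 lower) and DNA repair genes (5 of 30 higher and 3 lower) are set beside 13.6% higher and 19.2% lower over all genes tested. Without siCT replicate 2 the proteasome list had 9 higher calls and the splicing list 6, and with library totals alone both had 0. The DNA repair list had 0 lower calls without each siPRMT1 library in turn. It had 2 higher and 0 lower with library totals alone, and 0 of either with only the 6 ethanol libraries.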
